A study of Mus musculus domesticus with 12 samples.

Results

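Transcript levels of 26 genes of cholesterol synthesis and of sterol-regulated transcription were followed in cultured mouse fetal liver erythroid cells after knockdown of an RNA exosome nuclease. The genes were listed by symbol: 20 enzymes that lead from acetyl-CoA to cholesterol and its isoprenoid branch point, 5 genes of the sterol-sensing machinery, and Stard4, a soluble sterol carrier. Each of the 26 symbols matched 1 of the 55385 gene identifiers in the deposited tables, and all 26 passed the filter on low counts that left 17650 genes for testing. The cells came from C57BL/6J embryos (E14.5). They were depleted of lineage-positive cells, infected with a retrovirus carrying a short hairpin RNA and GFP, and grown for 2 days in an erythroid expansion medium. GFP+ cells with the surface profile CD71int Ter119- or CD71int/+ Ter119-, which covers early erythroid precursors and proerythroblasts, were then sorted. By their labels, the 3 groups of 4 libraries differed only in the hairpin, which targeted firefly luciferase (shLuc, the control), Dis3 (shDis3) or Exosc10 (shExosc10). Dis3 and Exosc10 encode catalytic subunits of the RNA exosome, the complex that trims and degrades RNA from its free end. The labels give 1 hairpin name per target and name no culture or animal of origin for the 4 replicates. The p-values therefore reflect how these libraries vary, which may be technical variation only.

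Cholesterol is built in the endoplasmic reticulum from acetyl-CoA through mevalonate, farnesyl diphosphate, squalene and lanosterol. When sterols run low in that membrane, the escort protein Scap carries SREBP2, the product of Srebf2, to the Golgi, where it is cleaved and released as a transcription factor for nearly all enzymes of the pathway. When sterols are plentiful, the Insig proteins hold Scap and its cargo back. Developing red cells need membrane cholesterol and isoprenoids while they divide.

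Library totals lay between 14936200 and 32397204 counts. Dis3 was at 131 ± 20.3 normalised CPM (reads scaled to library size; mean ± SD, n = 4 here and below) in shLuc, 38.3 ± 12.1 in shDis3 and 143 ± 35.9 in shExosc10. Exosc10 was at 98.2 ± 12.01, 114 ± 25.2 and 26.4 ± 5.50 in the same order. With edgeR's quasi-likelihood test and Benjamini-Hochberg adjustment over all genes, Exosc10 was lower in shExosc10 than in shLuc (log2 fold change -1.89 ± 0.21, given ± SE here and below, adjusted p = 0.00502), while Dis3 in shDis3 against shLuc was just outside the threshold of 0.05 (-1.78 ± 0.24, adjusted p = 0.0581). Across the 9497 genes whose mean level reached 5 CPM, the libraries did not cluster by hairpin. The first cluster held shLuc replicates 1 to 3 with shExosc10 replicates 2 to 4, the second shLuc replicate 4 with shDis3 replicate 3, the third shDis3 replicates 1 and 2, and the fourth shDis3 replicate 4 with shExosc10 replicate 1. The defining erythroid genes Gata1 and Klf1 were present in every library, at no less than 81.9 and 84.97 CPM. Marker sums of several lineages separated the first cluster from the other 6 libraries without overlap. The 10 megakaryocyte markers summed to 73.6, 69.9, 118 and 401 CPM in the shLuc libraries, in order of replicate number, 338, 289.9, 352 and 328 in those of shDis3 and 309, 148, 121 and 125 in those of shExosc10. The 10 erythroid markers summed to 2037, 1894, 1759 and 951 CPM in shLuc, 1391, 1155, 1004 and 1104 in shDis3 and 1147, 1689, 1969 and 1875 in shExosc10, highest in the 6 libraries with the lowest megakaryocyte sums. Gene by gene the erythroid markers were mixed. In shDis3 against shLuc 6 were negative and 4 positive, with a median log2 fold change of -0.05, and against shExosc10 4 were negative and 6 positive. The 8 granulocyte markers, led by Mpo, summed to 1049, 1224, 1607 and 4221 CPM in shLuc, 4803, 3711, 3241 and 2079 for shDis3 and 2038, 1635, 1294 and 1487 for shExosc10. The 8 hepatocyte markers did not exceed a sum of 28.4 CPM in any library, and 7 of the 8 were at 0 in at least 1 library. In bulk RNA, fewer cells of a type and less RNA per cell cannot be told apart, and the part of these lineage differences in the results below was not tested.

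The pathway was well expressed in control cells. On the length-normalised TPM scale, Fdps, the synthase that makes farnesyl diphosphate, was the highest member at 257 ± 59.01 TPM in shLuc (SD, n = 4), above 97.99% of the 13931 protein-coding genes tested. Idi1, which isomerises the basic isoprenoid unit, followed at 149.8 ± 27.4 TPM, and the sterol methyl oxidase Msmo1 at 129 ± 27.5 TPM. Srebf2 itself stood at 62.7 ± 28.1 TPM and its relative Srebf1 at 26.7 ± 9.28 TPM. The lowest members were Hsd17b7, a sterol ketoreductase, at 6.11 ± 2.97 TPM and Insig2 at 5.11 ± 2.66 TPM. Insig2 also had the lowest count of any member in a library, 56. The order of the members is by means: the SD of Idi1 and Msmo1 spans the gap between them, and that of Hsd17b7 and Insig2 likewise.

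In shDis3 cells the sterol genes lay below the control on balance, but no single gene passed the adjusted threshold. Of the 26 members, 24 had a negative log2 fold change in shDis3 against shLuc, with a median of -0.36, beside a median of 0.02 and a negative share of 47.4% over all genes tested. No member was called by edgeR, where 0% of all genes were called, and none by DESeq2 (0.187% of genes) or by limma on TPM. At an unadjusted p under 0.05, 9 members were past the threshold in edgeR, all of them lower, against 2.07% of all genes. In 3 members (Sqle, Lss and Stard4) every shDis3 library lay below every shLuc library, a pattern found in 0.793% of all genes. The exceptions in direction were Scap, at 0.13 ± 0.23, and Lbr, at 0.01 ± 0.20. Lbr turned negative with DESeq2 size factors.

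In shExosc10 cells most enzymes had small positive values and most sensing genes negative ones. Of the 20 enzymes 17 were positive, with a median of 0.14, and Stard4 was positive too, while 4 of the 5 sensing genes were negative. Over all 26 members the median was 0.09, beside 0.02 for all genes, with 19 positive and 7 negative values where 47.8% of all genes were negative. No member was called by edgeR (0.00567% of all genes, which was Exosc10 alone), by DESeq2 (0.0453%) or by limma on TPM, and none reached an unadjusted p under 0.05 in edgeR (2.1% of all genes). The groups overlapped in every member, where 1.46% of all genes were lower and 1.02% higher without overlap. The highest values were those of Ggps1, at 0.39 ± 0.19, and Cyp51, at 0.36 ± 0.18. The lowest were those of Srebf1 and Scap, at -0.40 ± 0.25 and -0.40 ± 0.23.

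The direct comparison of the 2 knockdowns gave the widest gap. In shDis3 against shExosc10, 23 of the 26 members were negative and the median was -0.47, beside 0.01 and a negative share of 48.8% for all genes. All 20 enzymes were negative. edgeR called no member (0.0113% of all genes, which were Dis3 and Exosc10), with 12 lower and 1 higher at an unadjusted p under 0.05, against 2.79% and 3.18% of all genes. DESeq2 called 6 members lower, where it called 0.448% of all genes: Cyp51, Fdft1, Stard4, Hsd17b7, Sc5d and Insig1. In 8 members every shDis3 library lay below every shExosc10 library (Fdft1, Sqle, Lss, Cyp51, Hsd17b7, Sc5d, Insig1 and Stard4), against 1.8% of all genes. The 3 comparisons share their groups in pairs, so they are not independent of each other.

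**Figure D1:**
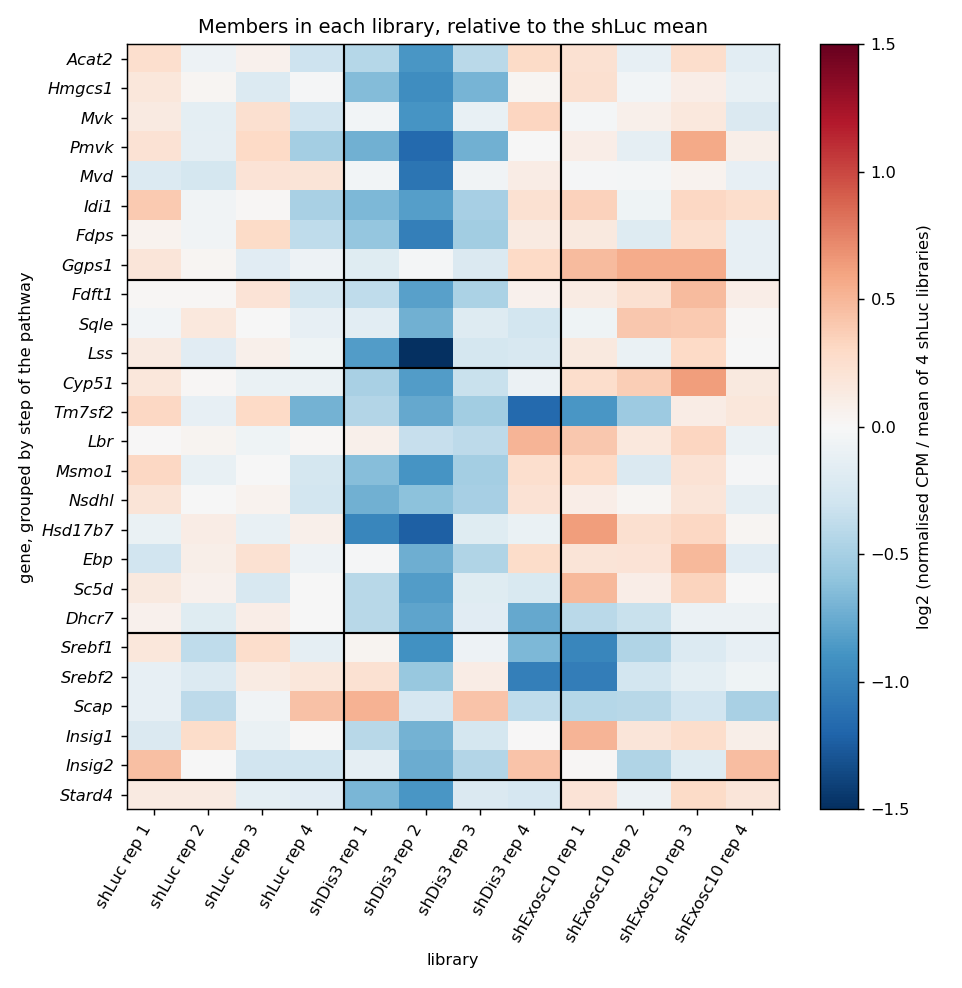
Each row is a member gene, grouped by step of the pathway, and each column a library; the colour gives log2 of its normalised CPM over the mean of the 4 shLuc libraries. The shDis3 replicate 2 column is the darkest blue and holds the lowest value of 19 of the 26 members, while shDis3 replicate 4 is near the control for most enzymes. The share of all genes that were lowest in shDis3 replicate 2 is not given here.

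The first arm runs from acetyl-CoA to farnesyl and geranylgeranyl diphosphate, and all 8 of its members were negative in shDis3 against shLuc, with a median of -0.34. Hmgcs1, the synthase that makes hydroxymethylglutaryl-CoA (chromosome 13, 119690379 to 119708260, plus strand, ENSMUSG00000093930.2, build GRCm38), was at 233, 211, 180.3 and 205 CPM in the shLuc libraries, in order of replicate number, 132, 109, 128 and 212 in shDis3 and 244, 201, 223 and 192 in shExosc10. Here 3 of the 4 shDis3 libraries were below every other library, and replicate 4 was among the controls. The log2 fold change was -0.51 ± 0.20 against shLuc and -0.57 ± 0.20 against shExosc10, with edgeR adjusted p-values of 0.9998 and 0.764. Pmvk, which phosphorylates phosphomevalonate, was at 61.2, 48.1, 64.9 and 37.1 CPM in shLuc, 32.1, 23.5, 32.01 and 52.5 in shDis3 and 56.8, 48.3, 78.03 and 56.02 in shExosc10. Its groups overlapped through shDis3 replicate 4 alone, with log2 fold changes of -0.59 ± 0.25 and -0.77 ± 0.26 for shDis3 against shLuc and shExosc10. Idi1 was at 510.2, 374, 392 and 278 CPM in shLuc, 245, 219.5, 275 and 454 in shDis3 and 494, 371, 483 and 468 in shExosc10. It had the same layout, with shDis3 replicates 1 to 3 lowest and replicate 4 inside the range of the other groups. Fdps had a log2 fold change of -0.44 ± 0.23 against shLuc, and Acat2, the cytosolic thiolase at the start of the pathway, -0.29 ± 0.23.

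Not every gene of this arm shared that layout. Mvk and Mvd, the mevalonate kinase and the decarboxylase, differed from shLuc by -0.11 ± 0.23 and -0.20 ± 0.23. Without shDis3 replicate 2 these values were 0.07 and 0.00. Ggps1 makes geranylgeranyl diphosphate, the lipid used to anchor small GTPases, and so stands on the branch that leaves the sterol pathway. Its shDis3 mean was 25.99 ± 4.47 CPM beside 26.4 ± 2.81 in shLuc, while shExosc10 was at 36.7, 38.7, 38.6 and 24.2 CPM in replicates 1 to 4.

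The 3 enzymes from farnesyl diphosphate to lanosterol were all negative in shDis3, with a median of -0.37 in shDis3 against shLuc and -0.61 against shExosc10. Fdft1, squalene synthase, commits farnesyl diphosphate to sterols; it was at 195, 195, 223 and 160.2 CPM in shLuc, 148, 109.8, 139 and 202 in shDis3 and 210.1, 227, 269 and 208 in shExosc10. Its shDis3 libraries lay below all shExosc10 libraries and overlapped the shLuc range through replicate 4. Sqle, squalene epoxidase, the oxygen-dependent step that follows, was at 144, 165, 147 and 135 CPM in shLuc, 133, 89.4, 129 and 122 in shDis3 and 142, 195, 194 and 149.95 in shExosc10. Its 4 shDis3 libraries were the 4 lowest of the 12, by a small margin: the highest of them, 133, was just under the lowest control, 135. Lss, which cyclises the epoxide to lanosterol (chromosome 10, 76531588 to 76557138, plus strand, ENSMUSG00000033105.12), was at 135, 109, 129 and 117 CPM in shLuc, 68.7, 42.6, 102 and 104 in shDis3 and 135, 114, 150.1 and 122 in shExosc10. Again the 4 shDis3 libraries were lowest, and replicates 1 and 2 were far below the rest of the group. The log2 fold change of Lss was -0.63 ± 0.24 against shLuc (edgeR adjusted p = 0.9998) and -0.72 ± 0.24 against shExosc10 (adjusted p = 0.747).

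**Figure D2:**
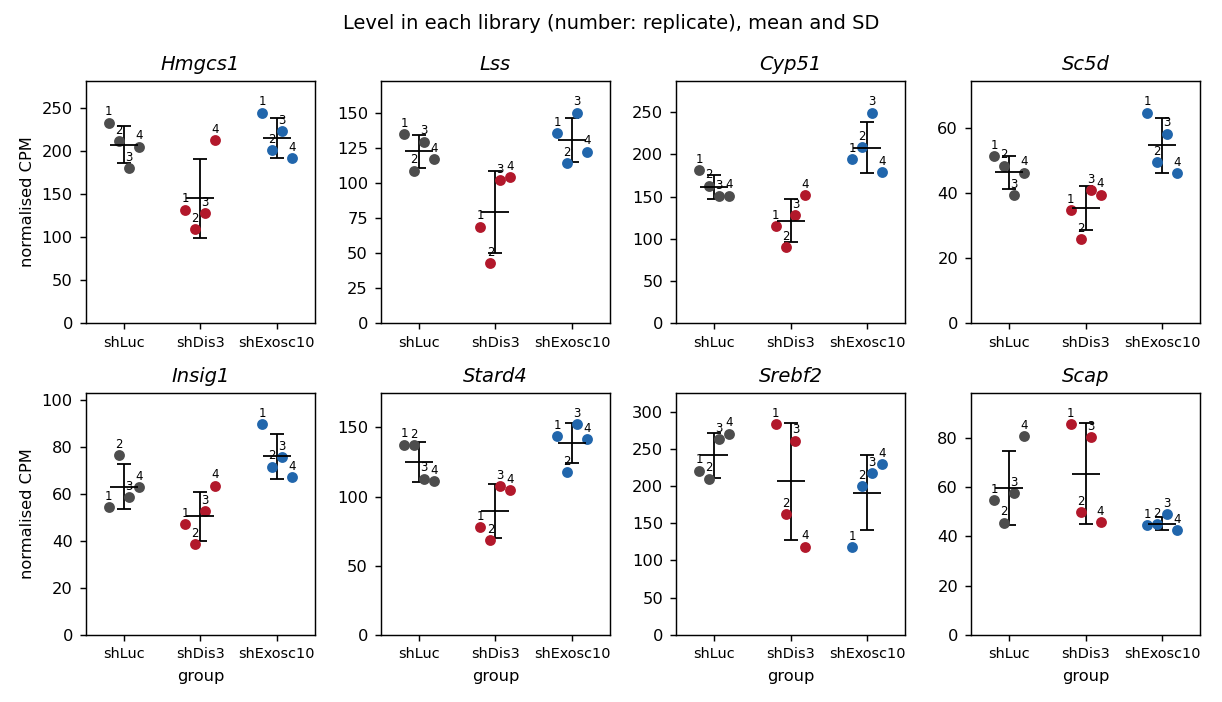
Normalised CPM of 8 members in each library, with the replicate number above each point and lines for the mean and SD of the 4 libraries of a group. For Lss and Stard4 all shDis3 points are below all shLuc and shExosc10 points; for Hmgcs1 and Insig1 shDis3 replicate 4 lies with the controls; for Srebf2 the group ranges overlap.

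Of the 9 enzymes from lanosterol to cholesterol, 8 were negative in shDis3 against shLuc (median -0.39) and 9 against shExosc10 (median -0.46). Cyp51, the lanosterol demethylase (chromosome 5, 4081145 to 4104746, minus strand, ENSMUSG00000001467.5), had the lowest p of any member. It was at 182, 163, 150.4 and 151 CPM in shLuc, 115, 90.5, 128 and 152 in shDis3 and 195, 208, 249.7 and 179 in shExosc10. All shDis3 libraries lay below all shExosc10 libraries, and shDis3 replicate 4 was level with the lower controls. The log2 fold change in shDis3 against shExosc10 was -0.78 ± 0.18, with an edgeR adjusted p of 0.666 and a DESeq2 adjusted p of 0.000460. Against shLuc it was -0.41 ± 0.18 in shDis3 and 0.36 ± 0.18 in shExosc10 (n = 4 libraries a group), on either side of 0. Hsd17b7 (chromosome 1, 169949535 to 169969241, minus strand, ENSMUSG00000026675.12), which reduces the ketone left by demethylation, was at 17.2, 19.9, 16.9 and 19.4 CPM in shLuc, 9.29, 7.83, 16.2 and 17.2 in shDis3 and 28.3, 21.7, 22.8 and 18.7 in shExosc10. Its shDis3 replicates 1 and 2 were far below the other 10 libraries, and its log2 fold change against shExosc10, -0.85 ± 0.25, was the largest of any member in that comparison. Sc5d, the desaturase near the end of the pathway, was at 51.3, 48.3, 39.3 and 46.2 CPM in shLuc, 34.6, 25.9, 40.8 and 39.5 in shDis3 and 64.6, 49.4, 58.1 and 45.99 in shExosc10. Its shDis3 range ended below the shExosc10 range and overlapped the control range only through shLuc replicate 3.

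The remaining enzymes of this arm differed in which shDis3 libraries were low. Msmo1 and Nsdhl, which act together in removing methyl groups from the ring, had log2 fold changes of -0.38 ± 0.24 and -0.35 ± 0.21 in shDis3 against shLuc, with replicate 4 among the highest values rather than the lowest. Ebp, the sterol isomerase, had -0.18 ± 0.23. Dhcr7, the reductase of a last step to cholesterol, was at 66.1, 55.8, 67.98 and 63.1 CPM in shLuc, 47.6, 36.6, 56.2 and 37.3 in shDis3 and 47.8, 50.05, 59.3 and 59.6 in shExosc10. Unlike Hmgcs1 or Idi1, it was low in shDis3 replicate 4 as well, and its overlap with the control came from replicate 3. Its value against shLuc was -0.51 ± 0.18 in shDis3 and -0.22 ± 0.17 in shExosc10. Tm7sf2 and Lbr both encode sterol reductases for the same double bond, and Lbr also anchors heterochromatin at the nuclear envelope. Tm7sf2 had the most negative value of the list in shDis3 against shLuc, -0.69 ± 0.29, at a low level of 8.998 ± 1.93 against 14.6 ± 4.34 CPM, and its shLuc replicate 4 lay inside the shDis3 range. That value depended on the scale and the model. Mean TPM of Tm7sf2 was 7.915 ± 3.57 in shDis3 and 8.56 ± 0.90 in shLuc (SD). With the cluster of libraries as a term in the edgeR model, its log2 fold change was -0.11 ± 0.30. Lbr was at 261 ± 80.4 CPM in shDis3 and 259 ± 7.88 in shLuc.

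**Figure D3:**
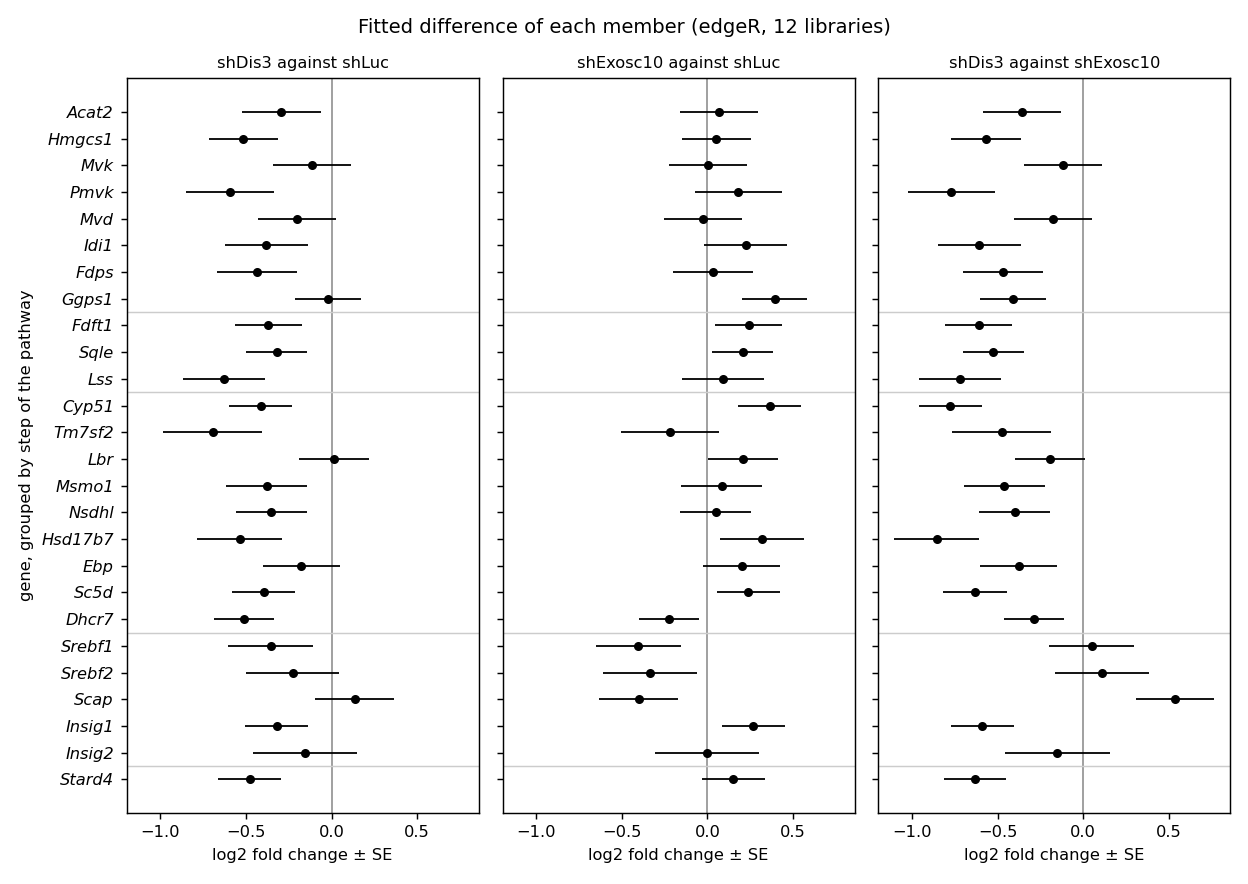
Fitted log2 fold change of each member with its standard error in the 3 comparisons, from 1 model over 12 libraries. Points lie left of 0 for 24 of 26 members in shDis3 against shLuc and for 23 of 26 in shDis3 against shExosc10, and on either side of 0 in shExosc10 against shLuc; no member passed the adjusted threshold in any panel.

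The sensing genes lay on the enzymes' side of the control in shDis3 but not in the other comparisons. Against shLuc, 4 of the 5 were negative in shDis3, with a median of -0.23, beside 19 of 20 enzymes and a median of -0.38. In shExosc10 4 of the 5 were negative against shLuc as well, with a median of -0.34, while the enzymes were mostly positive there. In shDis3 against shExosc10 their median was 0.05, with 2 of 5 negative, beside 20 of 20 enzymes. The difference between the sensing genes and the enzymes was not tested. Srebf2 was at 221, 210.4, 264 and 271 CPM in shLuc, 284, 162, 262 and 119 in shDis3 and 118, 200.03, 218 and 230.4 in shExosc10. Its lowest libraries were shDis3 replicate 4 and shExosc10 replicate 1, the pair that clustered together, and the highest was shDis3 replicate 1. The group ranges overlapped, and the log2 fold changes against shLuc were -0.23 ± 0.27 in shDis3 and -0.34 ± 0.27 in shExosc10, neither of them called. Scap was at 54.7, 45.6, 57.6 and 80.8 CPM in shLuc, 85.6, 49.95, 80.5 and 45.9 in shDis3 and 44.5, 44.9, 48.9 and 42.5 in shExosc10. High Scap marked shDis3 replicates 1 and 3 and shLuc replicate 4, and the shExosc10 values were tight and low. In shDis3 against shExosc10 its value was 0.54 ± 0.23, the only member that was higher at an unadjusted p under 0.05 in edgeR, with an adjusted p of 0.792. Srebf1, which drives fatty acid synthesis genes more than sterol genes, had -0.35 ± 0.25 in shDis3 and -0.40 ± 0.25 in shExosc10 against shLuc.

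Insig1 and Stard4 lie outside the enzyme chain but are themselves SREBP2 targets, and both had lower means in shDis3, as most enzymes did. The layout of Insig1 was like that of Hmgcs1, and the layout of Stard4 like that of Lss. Insig1, which retains Scap, was at 54.3, 76.3, 58.6 and 62.7 CPM in shLuc, 47.2, 38.5, 52.6 and 63.4 in shDis3 and 89.5, 71.5, 75.4 and 67.1 in shExosc10. Its shDis3 libraries were all below the shExosc10 libraries, with a log2 fold change of -0.59 ± 0.19 and adjusted p-values of 0.686 in edgeR and 0.0413 in DESeq2. Stard4, which moves cholesterol between membranes, was at 138, 138, 113 and 111 CPM in shLuc, 77.8, 68.4, 107 and 105 in shDis3 and 144, 118, 152 and 141 in shExosc10. All 4 shDis3 libraries were below the other 8. Its log2 fold change was -0.48 ± 0.18 against shLuc and -0.63 ± 0.18 against shExosc10, the latter with adjusted p-values of 0.666 in edgeR and 0.0174 in DESeq2. Insig2, the second retention protein, stayed between 3.35 and 7.73 CPM in all libraries.

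Summed over the 20 enzymes and Stard4, the levels showed how far the result rests on single libraries. The sum was 2933, 2602, 2718 and 2282 CPM in the shLuc libraries, in order of replicate number, 1917, 1487, 1970.1 and 2836 in shDis3 and 3068, 2673, 3270.1 and 2675 in shExosc10. In shDis3 it ranged from 1487 in replicate 2, the lowest of all 12, to 2836 in replicate 4, which is inside the control range. Replicate 2 also has the smallest library of the series. Leaving it out moved the median of the 26 members in shDis3 against shLuc from -0.36 to -0.24, while the median of all genes moved to -0.07. Leaving out replicate 4 moved it to -0.50. The 10 hypoxia-response genes, which include Bnip3 and Slc2a1, summed to 895, 804, 1004 and 388 CPM in shLuc, 444, 355, 419 and 418 in shDis3 and 362, 703, 918 and 840.1 in shExosc10. They separated the first cluster of libraries from the other 3 clusters without overlap. The sterol sum did not follow that split: shExosc10 replicate 1 and shDis3 replicate 4 were low in hypoxia genes and high in sterol enzymes. It was lowest in shDis3 replicates 1 to 3 and shLuc replicate 4, at 1917, 1487, 1970.1 and 2282 CPM. All other libraries were at 2602 CPM or more. These 4 low libraries, a control among them, are 2 whole clusters, and with 3 clusters drawn they make up 1. Low sterol sums thus went with the clusters without overlap. Whether the hairpin or the cluster sets the sum was not tested.

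**Figure D4:**
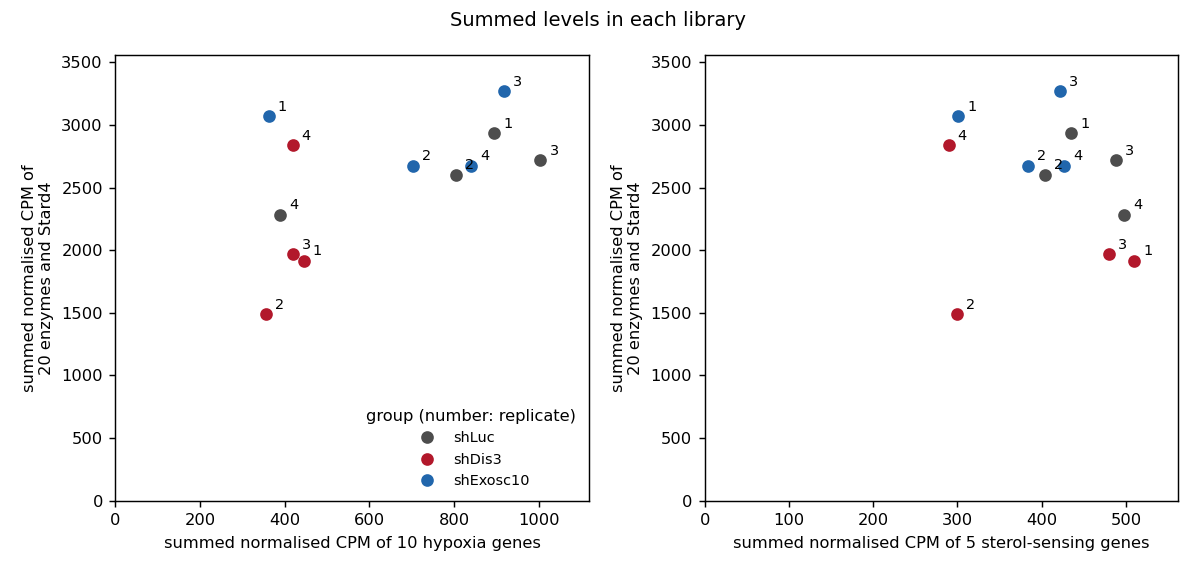
Summed normalised CPM of 20 enzymes and Stard4 in each library, against the summed CPM of 10 hypoxia-response genes (left) and of the 5 sterol-sensing genes (right); numbers are replicates. At low hypoxia sums, 355 to 444 CPM, the sterol sum spans from 1487 (shDis3 replicate 2) to 3068 (shExosc10 replicate 1). These 2 libraries have nearly the same sum of sensing genes, 300.02 and 301, but not the same genes in it. In the same order, Insig1 is at 38.5 and 89.5 CPM and Srebf2 at 162 and 118.

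Since the clusters cut across the hairpins, the members were also read within them. Within the second cluster, shDis3 replicate 3 lay below shLuc replicate 4 in 23 of 26 members, with a median log2 ratio of -0.17, beside 45.2% of all genes lower. Hmgcs1 had the largest gap of that pair, -0.68. Within the fourth cluster, shDis3 replicate 4 lay below shExosc10 replicate 1 in 16 of 26 members, with a median of -0.08, beside 45.7% of all genes, and the largest gaps were those of Hsd17b7, -0.70, and Sc5d, -0.70. Each of these sets 1 library against 1 library and has no replicate check. Within the first cluster, shExosc10 replicates 2 to 4 against shLuc replicates 1 to 3 gave 12 of 26 lower and a median of 0.05, beside 47.2% and 0.02 for all genes. The third cluster held shDis3 libraries only and gives no within-cluster value. With the cluster as a term in the edgeR model, the median of the members in shDis3 against shLuc was -0.11, with 23 of 26 negative, and in shDis3 against shExosc10 -0.18, with 19 of 26 negative. The median and negative share of all genes in that fit are not given here. No member was called in it, but the clusters were drawn from these same data. The term for the third cluster takes up shDis3 replicates 1 and 2. The shDis3 values of that fit thus rest on replicates 3 and 4, each the only shDis3 library of its cluster, and cannot decide the part of lineage. Cyp51 in shDis3 against shExosc10 was then -0.46 ± 0.22 and Hsd17b7 -0.62 ± 0.23, while Fdft1 was -0.21 ± 0.21 and Scap 0.12 ± 0.24.

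Removing 3 of the libraries that sat with another group gave larger values. When replicate 4 of shLuc, replicate 4 of shDis3 and replicate 1 of shExosc10 were left out together, the median in shDis3 against shLuc was -0.53, and edgeR called 6 members lower: Pmvk, Nsdhl, Msmo1, Idi1, Fdps and Hmgcs1. That fit called 4.04% of all genes, and its median over all genes is not given here. In shDis3 against shExosc10 it also called 6 members lower (Cyp51, Fdft1, Pmvk, Nsdhl, Idi1 and Hmgcs1), where 3.23% of all genes were called, and in shExosc10 against shLuc none, where 0.0157% were. Pmvk had the largest of these values, -0.99 ± 0.22 against shLuc (adjusted p = 0.0183) and -1.07 ± 0.22 against shExosc10 (adjusted p = 0.0145). The libraries left out were picked from the correlations in these same data, and the choice was not even. shDis3 replicate 3 correlated more with shLuc replicate 4 (r = 0.988) than with any library of its own group, but was kept. Of those left out, shDis3 replicate 4 had the highest sum of enzymes and Stard4 in its group, and shLuc replicate 4 the lowest in its own. The third cluster, with shDis3 replicates 1 and 2, then makes up most of the shDis3 group.

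Genes around the pathway were mixed, and of their lists fatty acid synthesis and the other SREBP2 targets had the lowest medians in shDis3 against shLuc. Of 58 neighbours in 7 lists, none was called in any comparison by edgeR. The 58 had a median of -0.06 in shDis3 against shLuc, with 37 negative and 2 at an unadjusted p under 0.05, and of -0.01 against shExosc10, with 30 negative. The 12 genes of the isoprenoid branch outside sterols, which attach or extend prenyl groups, had a median of 0.04 against shLuc. Among them Rabggtb and Fnta, transferase subunits, had -0.34 ± 0.21 and -0.06 ± 0.19. The 5 electron donors and scaffolds of the sterol enzymes, led by Cyb5r3 and Pgrmc1, had -0.16. The 4 further reported SREBP2 targets were Tmem97, Aacs, Rdh11 and Mmab, and their median was -0.22 against shLuc and -0.20 against shExosc10, where all 4 were negative. Summed, these 4 were at 271, 222, 269 and 252 CPM in shLuc, 207, 150.1, 225 and 287 in shDis3 and 314, 245, 295 and 240.4 in shExosc10. As for the enzymes, shDis3 replicate 2 was the lowest library and shDis3 replicate 4 was not low. This was not particular to SREBP2 targets. Replicate 2 was also the lowest library in the sum of the 12 isoprenoid genes, at 309 CPM, and of all 58 neighbours, at 2794 CPM. In the sum of the 58, shDis3 replicate 4 was inside the control range, at 4074 CPM. Cholesterol efflux genes under the nuclear receptor LXR, with Lpcat3 and Nr1h2 the highest of 7, had -0.03. The 9 genes of uptake, transport and esterification had -0.06. In that list Scarb1, a lipoprotein receptor, had -0.11 ± 0.17, and Soat1, which esterifies cholesterol for storage, had 0.67 ± 0.52, with its 6 highest libraries being those outside the first cluster.

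Fatty acid synthesis was the neighbour with the most negative values, 12 of 13 in shDis3 against shLuc with a median of -0.22. Scd2, a desaturase of fatty acids, was at 1019.6, 746, 929 and 738 CPM in shLuc, 469, 303, 674 and 621 in shDis3 and 574, 727, 1033 and 869 in shExosc10. Its shDis3 libraries lay below every control library, at a log2 fold change of -0.73 ± 0.25 (edgeR adjusted p = 0.9998). Acly, which supplies cytosolic acetyl-CoA to both pathways, had -0.19 ± 0.21. Scd1, chosen after its values were seen, was at 159, 118, 135 and 57.2 CPM in shLuc, 48.2, 33.04, 38.2 and 19.6 in shDis3 and 35.4, 138, 170.2 and 150.2 in shExosc10. It had -1.75 ± 0.43 against shLuc (edgeR adjusted p = 0.823), and shLuc replicate 4 and shExosc10 replicate 1 were the lowest libraries of their groups, as for the hypoxia genes.

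Some members share sequence with other genes, which bears on how their reads were assigned. Of all runs of 50 bases in the annotated transcripts of Acat2, 39.1% also occur in transcripts of Acat3, its close copy on the same strand. The share was 26.5% for Fdft1, mostly with Ctsb on the opposite strand, 26.2% for Fdps, mostly with the overlapping same-strand gene Gm43738, and 25.3% for Idi1, mostly with Gm13502. It was 11.6% for Hmgcs1, 8.41% to 9.96% for Scap, Tm7sf2, Ggps1 and Lbr, and under 3% for the other 17 members, which include Lss, Cyp51, Hsd17b7, Sc5d, Insig1 and Stard4. Whether the authors' counting used strand is not given in the sources used here, so the counts of Fdft1, Scap, Lbr and Hmgcs1 could include reads of their opposite-strand partners.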

How the data were processed

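RNA was measured by RNA-seq in 12 libraries, 4 per hairpin, made with a stranded kit for small amounts of total RNA per the labels' protocols. Build GRCm38 (mm10), RSEM 1.3.0 and STAR 2.5.3a were used per the submitters' processing notes; the strand setting and annotation release are not stated there. The authors deposited, per the file headers, RSEM expected counts (estimated reads, 4.55% not whole), TPM and FPKM per gene, with lengths; FPKM and lengths were not tested. Symbols and coordinates came from GENCODE M21: of 55385 identifiers, 54487 matched with version and 55144 without.

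Expected counts were rounded and tested with edgeR 4.0.16 (R 4.3.3) by the quasi-likelihood F-test, with TMM factors, filterByExpr by group, all 12 libraries and no term but group. The filter kept 17650 genes, and the common coefficient of variation was 60.03%. P-values were adjusted over all genes by Benjamini-Hochberg, with a threshold of 0.05, and SE is the log2 fold change over the root of F. Normalised CPM were scaled by TMM; the authors' TPM served only for levels between genes. Alternatives were DESeq2 1.42.0, limma 3.58.1 on log2(TPM + 1), other normalization, filters and library sets, a replicate block and a cluster term. The edgeR step was tested on simulated counts with less variation than these libraries, no clusters, and planted changes larger than those of the members in the reported fits. That check therefore cannot show whether changes of the members' size would be called. Libraries were clustered on 1 minus Pearson's r of log2 CPM (prior count 2).

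The members and lists were chosen with earlier results of these data known. All members are named, with the 2 genes of highest TPM from each pathway list; others are said to be chosen after their values were seen. One neighbouring list is not reported here on its own. Correlations of deviations between same-numbered libraries were mixed (7 of 12 pairs above 0.1, range -0.47 to 0.77), so numbers were not used as pairs. The reads carry no stated molecular identifiers, so counting error is a lower limit.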

Additional observations from a re-analysis of the deposited data

Results flagged for a closer look

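Each member was checked in each group for a library far from the other 3, which made 78 sets of 4 libraries, and 1 was flagged, where chance flags about 1 in 20. Ggps1 in shExosc10 replicate 4 was at 24.2 normalised CPM, while the other 3 shExosc10 libraries lay between 36.7 and 38.7. The gap was 0.864 of the group's range, above Dixon's 95% critical value for 4 libraries. The value lies within the range of the shLuc libraries. Without this library the log2 fold change of Ggps1 in shExosc10 against shLuc was 0.54.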

How the results depend on the processing

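The direction of the members' median held under all 21 alternatives for shDis3 against shLuc and for shDis3 against shExosc10; for shExosc10 against shLuc it turned to -0.042 with 3 clusters of libraries as a term, an alternative chosen after seeing the data. For single members the sign held under every alternative in 18, 17 and 19 of 26 (shDis3 against shLuc, shExosc10 against shLuc, shDis3 against shExosc10). Leaving out each library in turn gave medians of -0.50 to -0.24, 0.04 to 0.19 and -0.66 to -0.37 in that order, and no member called. With the cluster of libraries as a term the last median was -0.18. On log2(TPM + 1) the median of all genes was 0.11 in shDis3 against shLuc, beside -0.17 for the members. Members called were 0 in the reported fits, 6 without the 3 libraries that resemble another group in both shDis3 comparisons, and 6 with DESeq2 in shDis3 against shExosc10.

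The number of all genes called moved more. In shDis3 against shLuc it was 0, and 1 with DESeq2 size factors, 123 without the filter, 33 with DESeq2, 772 without the 3 libraries, and 2 with 4 or 3 clusters as a term. Leaving out single libraries gave 0 to 146, the highest without shLuc replicate 4. In shExosc10 against shLuc it was 1, and 10 without the filter, 8 with DESeq2, 0 with limma, 3 without the 3 libraries, 7 with 4 clusters and 2 with 3 clusters, and 0 to 2 without single libraries. In shDis3 against shExosc10 it was 2, and 179 without the filter, 79 with DESeq2, 0 with limma, 1 from only the 8 libraries compared, 617 without the 3 libraries, and 1 to 2 without single libraries. The cause of these changes was not tested. The labels give no meaning to the replicate numbers; with the number as a replicate block the counts were 0, 1 and 1, no member was called, and the members' medians were -0.37, 0.08 and -0.48. The lowest count of any member in a library was 56; whether depth or the spread between libraries limited the calls was not tested.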
